A study of Rattus norvegicus with 16 samples.

Results

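Cxcl1, Cxcl2, Cxcl3 and Cxcl6 encode small secreted chemokines that draw neutrophils to inflamed tissue. The 4 genes were taken by name from the 26689 genes measured in mesenchymal stromal cells (MSCs) of rat bone marrow, and each name matched 1 gene. All 4 were highest when the MSCs had been kept in medium from inflammatory macrophages. Cxcl3 averaged 594 counts per 1000000 counts (CPM) there, Cxcl1 421, Cxcl6 214 and Cxcl2 118, against 0.755, 4.72, 2.22 and 0.0159 CPM for these genes in the MSCs' own medium.

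The MSCs came from the femurs and tibias of 4 adult wild-type female Sprague-Dawley rats, numbered 2, 3, 4 and 8, and were sorted as CD29+/CD45- cells. The cells of every rat were kept for 24 h in each of 4 media, which gave 16 libraries and n = 4 per condition. M1CM was medium conditioned by inflammatory (M1) macrophages, which had been polarized with lipopolysaccharide (LPS) and interferon gamma (IFNg). Pol1 was the polarizing medium without macrophages, labelled as D10 with 100 ng/ml LPS and 20 ng/ml IFNg. M0CM was medium conditioned by macrophages that had not been polarized. D10, the control, was the MSCs' growth medium of DMEM, fetal bovine serum and gentamycin. The study's methods, unlike the sample labels, put the polarizing medium on an RPMI base with macrophage colony stimulating factor (M-CSF) and at another IFNg concentration. They give the M0 macrophages fresh RPMI-based medium named without M-CSF before collection. Base medium, added M-CSF, carried-over LPS and IFNg, and factors released by the macrophages therefore cannot be told apart in M1CM against D10. By the methods, M1CM and M0CM shared an RPMI base. The other items cannot be told apart against M0CM either. Nor can the base, if the macrophages were polarized in the D10-based medium of the labels. These were cultured MSCs, expanded over several passages, so the values describe cells in a dish.

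Chemokines of this class carry the amino acids Glu-Leu-Arg before the first cysteines and act on the receptors CXCR1 and CXCR2, which neutrophils display. Stromal cells, endothelium and macrophages transcribe their genes within hours of sensing LPS, interleukin 1 or tumor necrosis factor, largely through transcription factors of the NF-kB family. The mRNAs carry AU-rich elements that shorten their life, so decay factors also set their level. Cxcl1, Cxcl2 and Cxcl3 are close paralogs. The gene named Cxcl6 in rat is the one listed as Cxcl5 in older rat annotation.

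The 4 genes lie together on the minus strand of chromosome 14. The study's methods name the Rnor 6.0 build. The deposited table, however, places 68 genes on contigs named AABR06 and 24 on contigs named JH620, names of an earlier rat assembly, and its last gene on chromosome 1 ends at base 290090286. The coordinates are therefore given as deposited, with the build unsettled. On them, Cxcl2 (ENSRNOG00000002792) spans 18640312 to 18642357 and Cxcl1 (ENSRNOG00000002802) spans 18653039 to 18654811. Cxcl3 (ENSRNOG00000028043) spans 18729345 to 18748597 and Cxcl6 (ENSRNOG00000002843) spans 18770998 to 18771910. The gaps between neighbors are 10681, 74533 and 22400 bases. Other listed genes in this stretch were nearly silent. Pf4, which encodes platelet factor 4, had 0 counts in all 16 libraries. Ppbp, the pro-platelet basic protein gene, had 2 counts and the unnamed ENSRNOG00000028678 had 11, all of them in M1CM.

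The sequences just before the start of transcription are shown because the NF-kB family is the best-known regulator of these genes. The stretches are the 130 bases up to the start site, from RefSeq on the GRCr8 build, with matches to an NF-kB motif (GGG, then 2 bases of any kind, then TTTCC) on either strand in capitals. They cover chr14:17479322-17479451 for Cxcl1, chr14:17467256-17467385 for Cxcl2 and chr14:17596418-17596547 for Cxcl6, all on the minus strand, and Cxcl3 is not shown.
Cxcl1: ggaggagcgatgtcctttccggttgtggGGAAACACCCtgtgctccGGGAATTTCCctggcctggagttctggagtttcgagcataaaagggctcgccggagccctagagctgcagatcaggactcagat
Cxcl2: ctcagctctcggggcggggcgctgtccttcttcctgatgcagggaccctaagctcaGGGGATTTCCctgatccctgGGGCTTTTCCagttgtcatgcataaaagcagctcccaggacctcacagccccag
Cxcl6: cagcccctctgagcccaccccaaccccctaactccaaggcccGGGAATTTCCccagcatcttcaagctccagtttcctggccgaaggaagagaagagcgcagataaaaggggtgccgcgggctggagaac

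Each of the 3 promoters held the NF-kB letters in this stretch. Cxcl1 had GGGAATTTCC at -84 to -75 and, on the other strand, GGGTGTTTCC at -102 to -93. Cxcl2 had GGGGATTTCC at -74 to -65 and GGGCTTTTCC at -54 to -45. Cxcl6 had GGGAATTTCC at -88 to -79. Of 33469 RefSeq rat promoters, each 250 bases before to 50 after the start, 1.53% held these letters on either strand. Letters of the interferon gamma-activated site (TTCNNNGAA, in 8.87% of promoters) and of the interferon-stimulated response element core (GAAA, 2 bases of any kind and GAAA, in 3.92%) were not found in the 3 windows. Neither was TATAAA, which 14.2% of promoters held, and no match overlapped another motif. A match is a description of letters and was not tested for binding.

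Libraries held 23291125 to 27808152 counts in M1CM, 25097631 to 28075391 in Pol1, 24055829 to 27863079 in M0CM and 25259670 to 31992709 in D10. CPM values use library sizes adjusted by the trimmed mean of M-values (TMM). The edgeR quasi-likelihood test covered 13556 genes, those that reached 10 counts or more in 4 or more libraries, and a gene counted as changed at an adjusted p below 0.05. All 4 chemokine genes passed this filter, Cxcl2 only through M1CM, where it was high. The mesenchymal marker list (8 genes, all with counts in every condition) summed to 46158 to 101405 CPM in M1CM, 77018 to 118000 in Pol1, 85389 to 123843 in M0CM and 93557 to 142314 in D10. The collagen genes Col1a1 and Col1a2 gave most of these sums. They averaged 42525 and 19071 CPM in M1CM and 79436 and 32604 CPM in D10. Of the 8 genes, M1CM raised 1 and lowered 3 relative to D10, where 23.3% of all genes tested were higher and 21.1% lower. In such bulk RNA, more cells that transcribe a gene and more RNA per cell cannot be told apart.

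**Figure D1:**
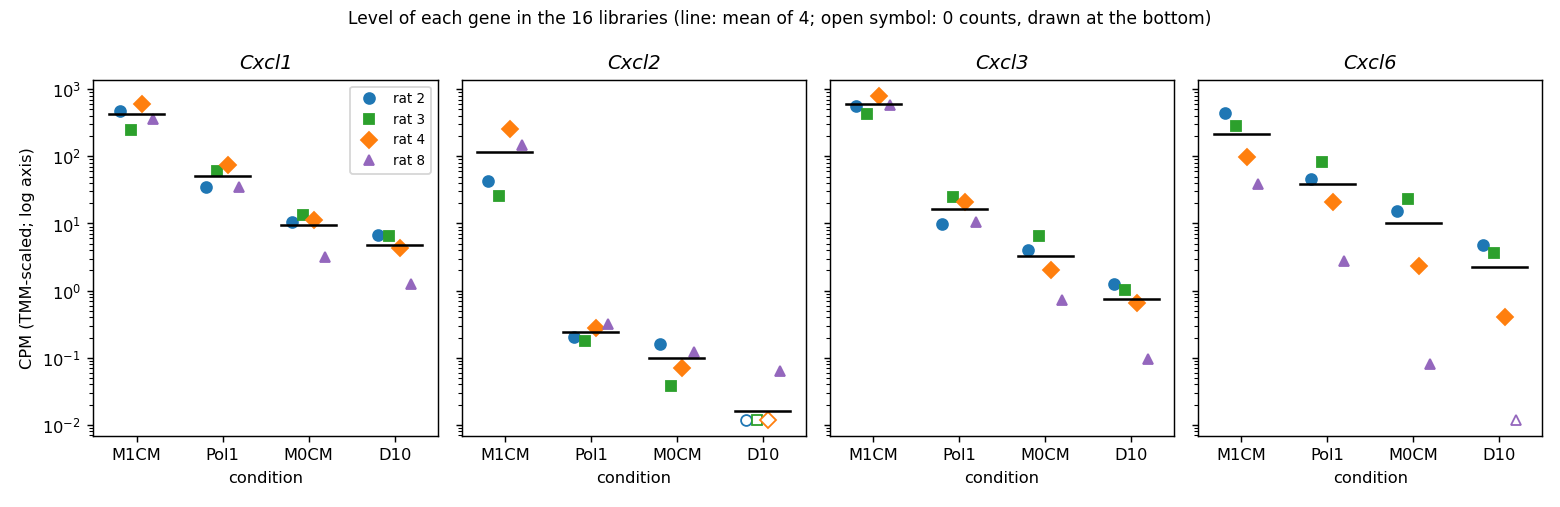
TMM-scaled CPM on a log axis for each gene in the 16 libraries, by condition, with 1 symbol per rat and a line at the mean of 4 libraries. M1CM stands highest for every gene, and Cxcl6 spreads widest between rats, for example 437 CPM in rat 2 and 39.3 CPM in rat 8 in M1CM.

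Cxcl3 was the most abundant of the 4 genes by counts in M1CM and the most even between rats. In rats 2, 3, 4 and 8 it stood at 569, 434, 794 and 579 CPM in M1CM, at 9.72, 24.9, 20.7 and 10.7 CPM in Pol1, at 4.03, 6.42, 2.01 and 0.734 CPM in M0CM, and at 1.25, 1.01, 0.657 and 0.0952 CPM in D10. Every M1CM library lay above every Pol1 library and every Pol1 library above every M0CM library, while M0CM and D10 overlapped. Means were 594 ± 149, 16.5 ± 7.48, 3.3 ± 2.48 and 0.755 ± 0.504 CPM in M1CM, Pol1, M0CM and D10 (SD, n = 4). Cxcl3 was 787-fold higher in M1CM than in D10 by the ratio of means, with a range of 428-fold in rat 3 to 6083-fold in rat 8, whose D10 library held 3 counts.

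Cxcl1, also known as growth-regulated oncogene, had the highest level of the 3 close paralogs in D10. In rats 2, 3, 4 and 8 it stood at 471, 246, 604 and 363 CPM in M1CM, at 35.0, 60.0, 73.7 and 35.2 CPM in Pol1, at 10.7, 13.3, 11.2 and 3.14 CPM in M0CM, and at 6.73, 6.61, 4.29 and 1.27 CPM in D10. The conditions separated as for Cxcl3, with an overlap between M0CM and D10 only. Means were 421 ± 153, 51.0 ± 19.1, 9.57 ± 4.43 and 4.72 ± 2.56 CPM in M1CM, Pol1, M0CM and D10 (SD, n = 4).

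Cxcl2, also known as macrophage inflammatory protein 2, had few counts outside M1CM. In rats 2, 3, 4 and 8 it stood at 43.5, 26.1, 253 and 148 CPM in M1CM. The counts were 5, 5, 8 and 9 in Pol1, 4, 1, 2 and 3 in M0CM, and 0, 0, 0 and 2 in D10. These low counts correspond to means of 0.244 ± 0.0644 CPM in Pol1, 0.0977 ± 0.0538 CPM in M0CM and 0.0159 ± 0.0317 CPM in D10, against 118 ± 105 CPM in M1CM (SD, n = 4). The lowest M1CM library was far above the highest of the other 12 libraries, at 0.32 CPM.

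Cxcl6 changed with the medium and with the rat. In rats 2, 3, 4 and 8 it stood at 437, 282, 98.9 and 39.3 CPM in M1CM, at 46.5, 82.1, 21.0 and 2.81 CPM in Pol1, at 15.3, 23.4, 2.29 and 0.0816 CPM in M0CM, and at 4.85, 3.64, 0.407 and 0 CPM in D10. Within each rat the order was M1CM, Pol1, M0CM and D10, from high to low. Between rats the conditions overlapped, since rat 8 in M1CM lay below rats 2 and 3 in Pol1. Means were 214 ± 181, 38.1 ± 34.4, 10.3 ± 11 and 2.22 ± 2.39 CPM in M1CM, Pol1, M0CM and D10 (SD, n = 4).

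Against D10, M1CM raised all 4 genes, where 23.3% of all genes tested were higher and 21.1% lower. The log2 fold change was 6.49 (standard error (SE) 0.59, adjusted p = 5.74e-07) for Cxcl1 and 9.65 (SE 0.76, adjusted p = 1.32e-07) for Cxcl3. Cxcl6 rose by 6.63 (SE 1.51, adjusted p = 0.00241) on this scale. Cxcl2 also passed the test (adjusted p = 1.34e-07), but it had entered it only through its M1CM counts. Its fold rests on 12589 counts in M1CM and 2 in D10, a ratio of 6917 with a 95% counting interval of 1914 to 57120. Each gene was higher in 4 of 4 rats. The median log2 fold change of the 4 genes was 8.14, and that of all genes tested was -0.00763.

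M1CM was also compared with M0CM, which sets the medium of polarized macrophages against that of macrophages left unpolarized. Again all 4 genes were higher, where 21.5% of genes tested were, with 18.9% lower. Log2 fold changes were 5.46 for Cxcl1 (SE 0.56, adjusted p = 2.4e-06), 10.19 for Cxcl2 (SE 0.84, adjusted p = 2.53e-07) and 7.49 for Cxcl3 (SE 0.68, adjusted p = 7.08e-07). Cxcl2 had entered the test only through its M1CM counts and had 10 counts in M0CM. The value for Cxcl6 was 4.38 (SE 1.34, adjusted p = 0.0166). Its call was lost without rat 2 (adjusted p = 0.0796) or without rat 4 (adjusted p = 0.0732). It was kept with a term for the rat, which pairs the libraries of each animal. Within rats 2, 3, 4 and 8 Cxcl6 was 28.5, 12.1, 43.2 and 482-fold higher in M1CM, the last on 2 counts in M0CM.

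The polarizing medium without macrophages, Pol1, raised 3 of the 4 genes against D10, where 10.6% of genes tested were higher and 8.09% lower. If Pol1 had the RPMI base and M-CSF of the study's methods, these cannot be told apart from LPS and IFNg here. Cxcl1 had a log2 fold change of 3.44 (SE 0.52, adjusted p = 0.000269) and Cxcl3 of 4.49 (SE 0.64, adjusted p = 0.000165). Cxcl6 had 4.14 (SE 1.37, adjusted p = 0.0477), just past the threshold, and lost the call without rat 2, 3 or 4, with adjusted p of 0.104, 0.19 and 0.17. A term for the rat kept the call. Within rats 2, 3 and 4 Cxcl6 was 9.59, 22.6 and 51.6-fold higher in Pol1, and rat 8 had 0 counts of it in D10. Cxcl2 did not pass (adjusted p = 0.127), with 27 counts in Pol1 and 2 in D10, a ratio of 14 with a 95% counting interval of 3.52 to 121. With a term for the rat, which pairs the libraries of each animal, Cxcl2 passed as well (log2 fold change 3.62, SE 0.94, adjusted p = 0.00887).

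In medium of unpolarized macrophages 0 of the 4 genes passed the edgeR test against D10. Cxcl3 was the 1 gene with an unadjusted edgeR p under 0.05, at 0.00399. DESeq2 and the fit with a term for the rat called 0 of the 4 as well. Of all genes tested, 0.125% were higher and 0.0148% lower in M0CM. The log2 fold change was 1.03 for Cxcl1 (SE 0.49, adjusted p = 1), 2.16 for Cxcl3 (SE 0.63, adjusted p = 0.526) and 2.25 for Cxcl6 (SE 1.31, adjusted p = 1). All 4 genes had a higher value in M0CM than in D10 in 4 of 4 rats. For Cxcl2 the counts were 10 and 2, a ratio of 5.48 with a 95% counting interval of 1.17 to 51.5.

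**Figure D2:**
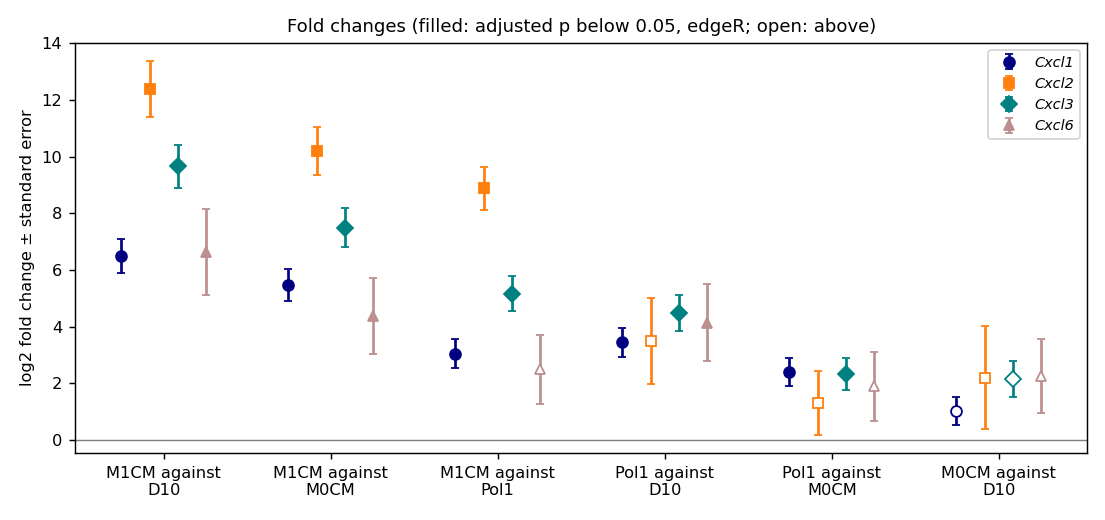
Log2 fold change of each gene with its standard error in 6 comparisons of conditions, first-named condition over the other, from edgeR. Filled symbols passed an adjusted p of 0.05. The values run highest in M1CM against D10, where the fitted values for Cxcl2 and Cxcl3 were 12.38 and 9.65.

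M1CM was also compared directly with Pol1, which was freshly prepared medium with the polarizing factors. The comparison does not separate factors released by macrophages from differences in base medium, M-CSF or remaining LPS and IFNg. Of the 4 genes, 3 were higher in M1CM, where 13.8% of genes tested were, with 11.3% lower. The difference was widest for Cxcl2, with 26.1 to 253 CPM in M1CM against 0.18 to 0.32 CPM in Pol1, a fold of 145 to 926 within rats (adjusted p = 2.92e-06). Here too Cxcl2 had entered the test only through M1CM, with 27 counts in Pol1. Cxcl3 followed (log2 fold change 5.17, SE 0.61, adjusted p = 3.48e-05), with 17.4 to 58.6-fold within rats. Cxcl1 had a log2 fold change of 3.05 (SE 0.50, adjusted p = 0.000513), with 4.09 to 13.5-fold within rats.

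Cxcl6 did not pass in M1CM against Pol1 (log2 fold change 2.49, SE 1.22, adjusted p = 0.156). It was nevertheless higher in M1CM in 4 of 4 rats, by 9.39, 3.43, 4.71 and 14-fold in rats 2, 3, 4 and 8. With a term for the rat the log2 fold change was 2.76 (SE 0.41, adjusted p = 0.000133). That fit called 5335 genes in this comparison, against 3404 without the term.

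Pol1 exceeded M0CM for Cxcl1 (log2 fold change 2.41, SE 0.49, adjusted p = 0.0039) and Cxcl3 (2.32, SE 0.56, adjusted p = 0.0115), where 8.38% of genes tested were higher and 5.67% lower. Without rat 4 neither passed, with adjusted p of 0.0536 for Cxcl1 and 0.133 for Cxcl3. Cxcl6 had 1.89 (SE 1.21, adjusted p = 0.365) and, with a term for the rat, 2.18 (SE 0.43, adjusted p = 0.00179). Cxcl2 had 27 counts in Pol1 and 10 in M0CM (adjusted p = 0.529).

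Whether the step between M1CM and M0CM was larger than the step between Pol1 and D10 was tested as a difference of differences. Only Cxcl3 passed, with an extra log2 change of 3.00 (SE 0.84, adjusted p = 0.0437), where 4.21% of genes tested had a larger step with macrophage medium and 2.87% a smaller one. The call was lost without rat 2, 3 or 4, with adjusted p of 0.18, 0.0564 and 0.243, and with no count filter (adjusted p = 0.0503). Cxcl1 had 2.02 (SE 0.68, adjusted p = 0.0881) and passed with a term for the rat (2.07, SE 0.52, adjusted p = 0.0123). The values were 6.69 for Cxcl2 (SE 3.79, adjusted p = 0.318) and 0.24 for Cxcl6 (SE 1.74, adjusted p = 0.954). Cxcl2 had entered this test only through M1CM, with 10 counts in M0CM, 27 in Pol1 and 2 in D10.

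Levels were compared between genes per length, in the deposited FPKM (fragments scaled by gene length and library total). For Cxcl6 the deposited gene length is 393 bases, a multiple of 3 as for a coding sequence alone, against 926 for Cxcl1, 1104 for Cxcl2 and 674 for Cxcl3. Its FPKM relative to the others depends on that model. In M1CM, Cxcl3 stood at 794, 646, 1218 and 866 FPKM in rats 2, 3, 4 and 8, which ranked it 78, 66, 45 and 74 among the 26689 genes. Cxcl1 stood at 478, 266, 674 and 394 FPKM, with ranks of 151, 241, 89 and 193. Cxcl6 reached 1045 and 719 FPKM in rats 2 and 3, ranks 53 and 58, and 260 and 101 FPKM in rats 4 and 8, ranks 294 and 806.

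The order of Cxcl1 and Cxcl3 turned over with the medium. Cxcl3 had the higher FPKM in 4 of 4 M1CM libraries, and Cxcl1 in all 12 libraries of the other conditions. The log2 ratio of Cxcl1 to Cxcl3 per length averaged -1.0 ± 0.25 in M1CM, 1.21 ± 0.27 in Pol1 and 2.37 ± 0.49 in D10 (SD, n = 4), with no overlap between the 3 conditions. The difference between M1CM and Pol1 was -2.21, with an exact two-sided permutation p of 0.0286, the smallest that 4 libraries against 4 can give. Adjusted over the 18 ratios compared it was 0.0857, and none of the 18 passed an adjusted threshold of 0.05. The ratio of Cxcl1 to Cxcl2 in M1CM against Pol1 (-5.26) and that of Cxcl2 to Cxcl3 in the same comparison (3.05) also separated fully, on 5 to 9 counts of Cxcl2 in each Pol1 library. Ratios with Cxcl2 in D10 are not interpreted, because 3 of these 4 libraries had 0 counts of it and the 0.5 counts added would set the value.

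**Figure D3:**
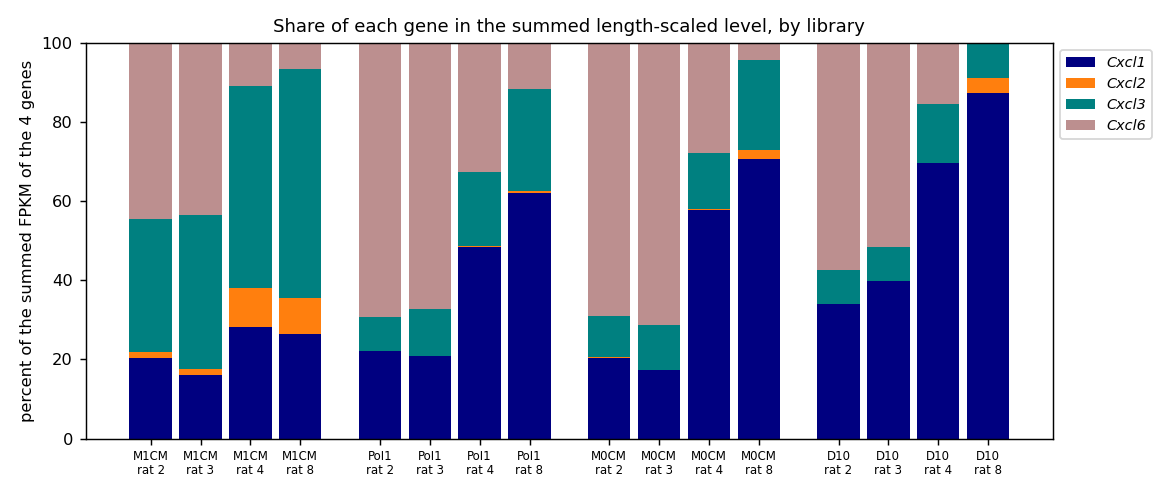
Share of each gene, in percent, in the summed FPKM of the 4 genes, with 1 bar per library ordered by condition and rat. Cxcl3 takes 33.7 to 57.8% in M1CM, and Cxcl6 takes 44.4 and 43.5% in rats 2 and 3 of M1CM against 10.9 and 6.74% in rats 4 and 8. The shares depend on the deposited length of 393 bases for Cxcl6.

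Summed over the 4 genes, FPKM came to 2354, 1654, 2389 and 1496 in M1CM, 168, 318, 171 and 63.4 in Pol1, 56.0, 82.6, 21.4 and 4.89 in M0CM, and 20.3, 17.4, 6.63 and 1.59 in D10. By counts, the 4 genes took 990 to 1809 CPM of the unscaled library total in M1CM and 1.44 to 12.2 in D10. In D10 the sums of rats 2 and 8 were far apart, while in M1CM all 4 rats lay close to each other. Which gene made up the sum differed between rats. Cxcl6 had the highest FPKM of the 4 genes in rats 2 and 3 in every condition, and in rats 4 and 8 Cxcl1 was highest in Pol1, M0CM and D10 and Cxcl3 in M1CM. The place of Cxcl6 depends on its deposited length of 393 bases. By CPM, in rats 2 and 3, Cxcl3 exceeded it in M1CM and Cxcl1 exceeded it in D10. The share of Cxcl2 in M1CM was 1.57, 1.43, 9.91 and 9.05% in rats 2, 3, 4 and 8.

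Differences between rats were therefore described gene by gene. For Cxcl6, rat 4 lay below rats 2 and 3 and rat 8 was lowest in each of the 4 conditions. A test of the rat term was chosen after these values were seen and run on the same 16 libraries, so its p-values restate that order and are no independent support for it. In it Cxcl6 passed (adjusted p = 4.48e-05), at log2 0.18, -2.14 and -4.12 in rats 3, 4 and 8 relative to rat 2. By this test 32.7% of all genes differed between rats, and Cxcl6 ranked 483 of 13556 by p. Cxcl2 passed as well (adjusted p = 0.000148), and in the other direction, with -0.78, 2.14 and 1.63 in rats 3, 4 and 8 relative to rat 2, values that rest almost wholly on M1CM. Cxcl1 (adjusted p = 0.0967) and Cxcl3 (adjusted p = 0.254) did not pass.

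**Figure D4:**
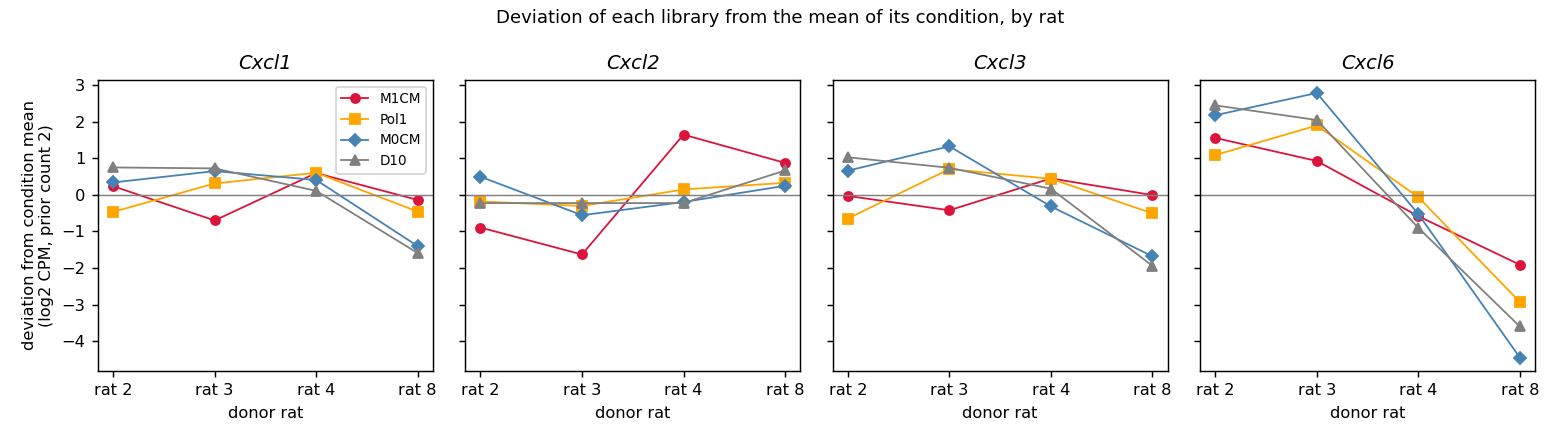
Deviation of each library from the mean of its condition in log2 CPM (prior count of 2), by rat, with 1 line per condition. Cxcl6 falls toward rat 8 in every condition, while Cxcl2 in M1CM stands above its mean in rats 4 and 8 and below it in rats 2 and 3.

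Deviations from the condition mean ran together for some pairs of these genes over the 16 libraries, which share 4 rats. Pearson's r was 0.933 between Cxcl1 and Cxcl3, 0.814 between Cxcl3 and Cxcl6 and 0.741 between Cxcl1 and Cxcl6. No such value is given for Cxcl2, which had 0 to 9 counts in each of the 12 libraries outside M1CM. In the 4 M1CM libraries Cxcl1, Cxcl2 and Cxcl3 were each lowest in rat 3 and highest in rat 4. The deviations of Cxcl2 there were -0.89, -1.63, 1.65 and 0.88 in rats 2, 3, 4 and 8, against 0.24, -0.70, 0.60 and -0.14 for Cxcl1. How reads that match more than 1 of the close paralogs Cxcl1, Cxcl2 and Cxcl3 were counted is not given in the sources used here, and the levels of these genes are uncertain to that extent.

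The genes with the most similar pattern over the 16 libraries, by Pearson's r of log2 CPM, differed between the members. For Cxcl1 they were Emilin1 (0.9881), Nfkbiz (0.9819), Nod2 (0.977), Upp1 (0.9749) and Ddit4 (0.9741), and for Cxcl3 they were Emilin1 (0.9931), Ccl20 (0.9869), Ptges (0.9812), Dennd3 (0.9807) and Upp1 (0.9793). Cxcl2, whose pattern rests on M1CM, came closest to Mapkapk2 (0.9848), Slc11a2 (0.9834), Bckdhb (0.9813), Fosl1 (0.9811) and Dhodh (0.9811). For Cxcl6 the values were lower, with Retreg3 (0.9728), Tgfbr3 (0.9687), Ctsz (0.962), Ccng2 (0.958) and C3 (0.9571). These values describe libraries that share conditions and rats.

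Receptors for these ligands were at or near 0 counts in the MSCs. Cxcr1 had 0 counts in all 4 conditions, and Cxcr2 had 1 count in M1CM, 1 in Pol1, 2 in M0CM and 0 in D10. Genes that bind or cut chemokines gave another picture. The proteases Mmp9 and Mmp12, both able to cleave these chemokines, and the heparan sulfate carrier Sdc4 exceeded both D10 and Pol1 in the M1CM libraries. Mmp9 averaged 1846 CPM in M1CM and 21.5 CPM in Pol1 (log2 fold change 6.42, SE 0.74, adjusted p = 3.13e-05). Mmp12 had 3420 counts in M1CM, 4 in Pol1, 107 in M0CM and 1 in D10. Sdc4 averaged 1507 CPM in M1CM and 342 CPM in Pol1 (2.14, SE 0.23, adjusted p = 1.94e-05). Sdc1 was lower in M1CM than in D10 (-0.69, SE 0.14, adjusted p = 0.000929).

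The upstream genes were read from lists of pathway members, and each count stands beside the share over all genes tested. Of 12 tested genes for NF-kB subunits, kinases and inhibitors, M1CM raised 12 over D10 (23.3% of all genes) and 9 over Pol1 (13.8% of all genes). Tnfaip3, the ubiquitin-editing enzyme that restrains NF-kB, averaged 125.5 CPM in M1CM, 9.10 CPM in Pol1 and 3.65 CPM in D10, and its log2 fold change over Pol1 was 3.79 (SE 0.35, adjusted p = 5.88e-06). The inhibitor gene Nfkbia averaged 139 CPM in M1CM and 32 CPM in Pol1 (2.12, SE 0.21, adjusted p = 1.07e-05). Nfkb2, which encodes the p100 precursor, averaged 283 CPM in M1CM and 54.7 CPM in Pol1 (2.37, SE 0.09, adjusted p = 5.01e-10). The list's median log2 fold change over Pol1 was 1.39, against 4.11 for the 4 chemokine genes and -0.00649 for all genes tested.

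Among 12 tested genes of interleukin 1, tumor necrosis factor (TNF) and interleukin 17 signaling, M1CM raised 6 and lowered 1 relative to Pol1, where 13.8% of all genes were higher and 11.3% lower. The cytokine genes Il1a, Il1b and Tnf were among those higher. Il1a averaged 134 CPM in M1CM, 0.748 CPM in Pol1 and 0.0485 CPM in D10 (log2 fold change over Pol1 7.46, SE 0.80, adjusted p = 1.86e-05). Il1b was 825-fold higher in M1CM than in Pol1, on 2336 and 3 counts (95% counting interval 282 to 4005). Tnf averaged 8.17 CPM in M1CM and 0.194 CPM in Pol1 (5.34, SE 0.62, adjusted p = 9.68e-05). Both Il1b and Tnf had entered the test only through M1CM, where they were high, and Tnf had 22 counts in Pol1. The gene that was lower was Il17rc, a chain of the interleukin 17 receptor (-0.81, SE 0.27, adjusted p = 0.0361), and Il17a had 0 counts in M1CM, Pol1 and D10.

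Of 10 tested genes for LPS sensing and the MyD88 pathway, M1CM raised 6 over D10 (23.3% of all genes) and 4 over Pol1 (13.8% of all genes). The largest rise over Pol1 was that of Irak2, a kinase-like adaptor below MyD88, at 11.4 CPM in M1CM and 3.79 CPM in Pol1 (log2 fold change 1.59, SE 0.22, adjusted p = 0.000118). The others were Cd14 (1.10, SE 0.35, adjusted p = 0.0342), Irak3 (1.07, SE 0.26, adjusted p = 0.00811) and Traf6 (0.55, SE 0.17, adjusted p = 0.0258). The list's median log2 fold change over Pol1 was 0.307.

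Of 12 tested genes for factors that control the decay of AU-rich mRNAs, M1CM raised 6 and lowered 1 relative to D10, where 23.3% of all genes were higher and 21.1% lower. Over Pol1 it raised 2 of the 12, a share near the 13.8% of all genes. These 2 were Zc3h12a, a ribonuclease that degrades inflammatory mRNAs (1.25, SE 0.23, adjusted p = 0.0011), and Mapkapk2, the p38 target kinase that stabilizes such mRNAs (1.33, SE 0.10, adjusted p = 1.11e-06). The p38 phosphatase gene Dusp1 was lower in M1CM than in D10 (-1.88, SE 0.28, adjusted p = 7.59e-05). Among 7 tested C/EBP and AP-1 genes, M1CM raised 5 and lowered 1 relative to D10, where 23.3% of all genes were higher and 21.1% lower. Fosl1 rose over Pol1 (2.92, SE 0.28, adjusted p = 6.98e-06) as did Junb (0.85, SE 0.28, adjusted p = 0.039), while Fos fell (-2.64, SE 0.35, adjusted p = 0.000103).

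**Figure D5:**
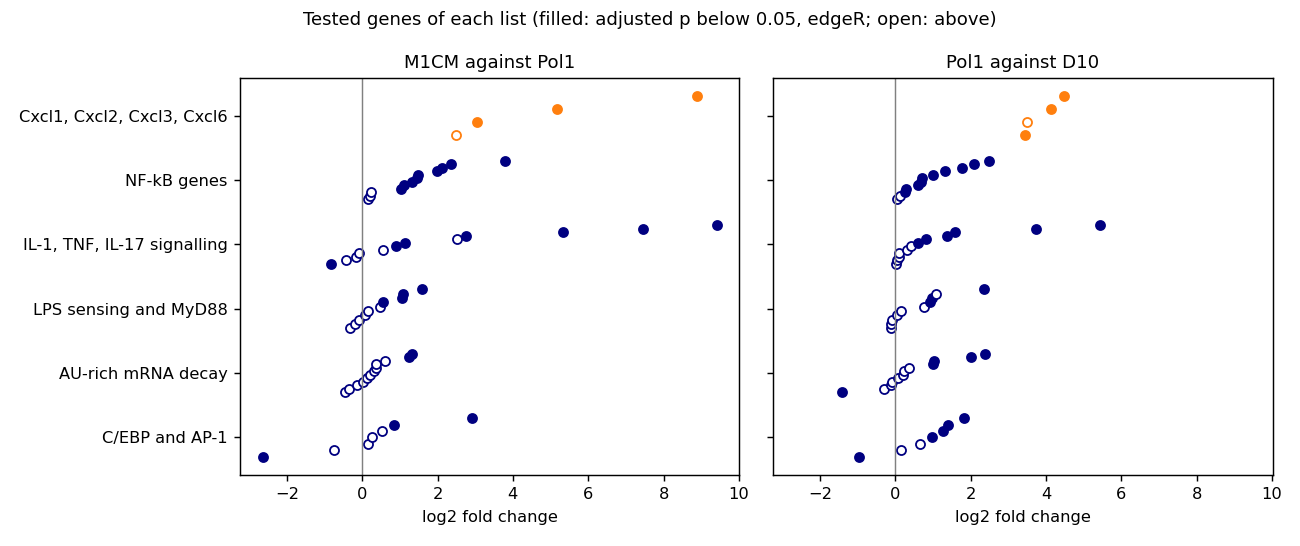
Log2 fold change of each tested gene in 5 lists and of the 4 chemokine genes, for M1CM against Pol1 (left) and Pol1 against D10 (right). Filled points passed an adjusted p of 0.05 in edgeR. In M1CM against Pol1 the chemokine genes had a median of 4.11, the NF-kB genes 1.39 and the LPS sensing genes 0.307.

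Other secreted factors were set beside the 4 genes. The granulocyte growth factor gene Csf3 had 10993 counts in M1CM, 10 in Pol1 and 1 in D10, and averaged 105 CPM in M1CM against 0.0883 CPM in Pol1 (log2 fold change 10.11, SE 0.70, adjusted p = 8.76e-07). Csf3 and Csf2 entered the test only through M1CM, where they were high. Csf2 had 996 counts in M1CM and 2 in Pol1, a ratio of 528 with a 95% counting interval of 146 to 4365. Ccl20 averaged 466 CPM in M1CM, 16.5 CPM in Pol1 and 1.36 CPM in D10. Like Csf3, Cxcl2 had most of its counts in M1CM, and Ccl20 lay close to Cxcl3 in each of the 3 conditions.

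The CXCR3 ligand Cxcl10 and the monocyte attractant Ccl2 served as single-gene comparisons. Cxcl10 averaged 2875 CPM in M1CM, 1305 CPM in Pol1 and 0.629 CPM in D10, and Ccl2 averaged 1265 CPM in M1CM, 399.5 CPM in Pol1 and 20.1 CPM in D10. The log2 ratio to Cxcl10 per length was higher in M1CM than in Pol1 by 1.90 for Cxcl1, 7.15 for Cxcl2 and 4.10 for Cxcl3, with no overlap of the libraries. Each had an exact permutation p of 0.0286 and 0.0508 after adjustment over 16 ratios. The ratio to Ccl2 was higher in M1CM than in Pol1 by 1.37 for Cxcl1, 6.63 for Cxcl2 and 3.58 for Cxcl3, with the same exact p. For Cxcl6 the differences were 1.61 to Cxcl10 (exact p = 0.286) and 1.09 to Ccl2 (exact p = 0.457), and its ratios overlapped between M1CM and Pol1. Within rats, however, the ratio of Cxcl6 to Cxcl10 and that to Ccl2 were both higher in M1CM in 4 of 4 rats, with a paired exact p of 0.125, the smallest that 4 pairs can give.

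Against D10, where Cxcl10 averaged 0.629 CPM, the ratios to Cxcl10 ran the other way. The ratio of Cxcl1 to Cxcl10 was lower in M1CM than in D10 in 4 of 4 rats, by a log2 difference of -5.60 and with no overlap (exact p = 0.0286, adjusted 0.0508). The differences were -2.23 for Cxcl3 (exact p = 0.114) and -4.27 for Cxcl6 (exact p = 0.114). The ratio to Ccl2 differed between M1CM and D10 by 3.78 for Cxcl3 (exact p = 0.0286), 0.41 for Cxcl1 (exact p = 0.314) and 1.73 for Cxcl6 (exact p = 0.371).

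Markers of other cell types were summed in each library, because macrophages and neutrophils transcribe these chemokines too. Macrophage and monocyte markers (13 of 14 listed were matched) summed to 17.2, 21.8, 40.8 and 22.7 CPM in M1CM in rats 2, 3, 4 and 8, 7.28 to 11.6 in Pol1, 19.0 to 23.3 in M0CM and 5.27 to 9.45 in D10. Of this list, Cd163, Mrc1 and Tyrobp had 0 counts in M1CM, Ptprc had 12 and Adgre1 had 10, and Cd14, which is also on the LPS list, made up 16.9 CPM of the mean. Of the 8 macrophage markers tested, M1CM raised 4 and lowered 2 relative to D10 (23.3% and 21.1% of all genes), and raised 4 over Pol1 (13.8% of all genes). Those higher than in D10 were Cd14, Lyz2, Cd68 (426 counts in M1CM and 28 in D10) and Cybb (191 counts in M1CM and 7 in D10), and Lcp1 and Mrc1 were lower. Those higher than in Pol1 were Cd14, Cd68, Cybb and Lcp1, and Csf1r passed against neither, with 86 counts in M1CM, 69 in Pol1 and 40 in D10. In rats 2, 3, 4 and 8 of M1CM, Cd68 stood at 0.887, 6.77, 6.54 and 2.57 CPM and Cybb at 4.13, 3.08, 0.113 and 0.321 CPM. Rat 4 was highest in M1CM for the sum over these markers, in which Cd14 alone stood at 8.33, 9.16, 32.6 and 17.5 CPM in rats 2, 3, 4 and 8. Cxcl1, Cxcl2 and Cxcl3 were also highest in rat 4, while Cd68 was highest in rat 3 and Cybb in rat 2. In M0CM, whose macrophages were not polarized, the sum was 19.0 to 23.3 CPM, Cd14 averaged 7.81 CPM and Cxcl2 stood at 0.0384 to 0.159 CPM. The part of macrophages in the M1CM values was not tested, and M0CM cannot show it for polarized macrophages.

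Neutrophil markers (8 of 8 matched) summed to 3.00 to 9.78 CPM in M1CM, 0.539 to 1.60 in Pol1, 0.0408 to 1.11 in M0CM and 0.0836 to 0.375 in D10. Camp, the cathelicidin gene, gave nearly all of it, with 777 counts in M1CM, while S100a8, S100a9, Elane and Ltf had 0 counts there. Endothelial markers summed to 1.64 to 6.72 CPM in M1CM and 4.90 to 10.0 in Pol1, and lymphocyte markers to at most 0.571 CPM in any library.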

How the data were processed

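Total RNA of MSCs was sequenced after an NEBNext Ultra RNA library preparation, and the deposited table lists 26689 genes. The submitters' processing notes name TopHat2 2.0.12, Bowtie2 2.2.3, HTSeq 0.6.1 and DESeq 1.18.0. The read counts deposited by the authors are raw counts per gene, and whether strand was used is not given in the sources used here. The FPKM deposited by the authors equal counts divided by gene length and library total to within 1% for 89.8% of values, the 4 chemokine genes included. The deposited gene lengths, in bases, are those the authors used for FPKM. Their p-values, adjusted p-values and calls (54 columns of the authors' comparisons, deposited as p-value, score and fold columns) and 4 columns of mean FPKM were not used.

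Counts were tested with edgeR 4.0.16 (R 4.3.3) on all 16 libraries, 1 term per condition, two-sided, with Benjamini-Hochberg adjustment over all 13556 genes. SE is the size of the log2 fold change divided by the square root of F. Libraries of 1 rat deviated alike (r of 0.33 to 0.728 over 24 pairs, against -0.519 to 0.225 over 72 pairs of different rats), and the labels give the rat, so the numbers pair the samples. Ratios between genes used length-scaled counts with 0.5 counts added and exact permutation tests. Alternatives were library totals, median-of-ratios factors, no count filter, DESeq2 1.42.0, a term for the rat (replicate block), only the libraries compared, and leaving out each rat. Counting intervals cover counting error only. Named list genes are at most 4 per list with the largest change among those called in M1CM against D10 or Pol1, and those behind counts of 5 or fewer. The members and lists were chosen with earlier results of these data known. Of 128 list genes, 121 matched 1 row, and Ackr1, Cxcl5, Itgam, Rel, Ticam1, Irak1 and Ikbkg were not analysed here.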

Additional observations from a re-analysis of the deposited data

Results flagged for a closer look

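Cxcl2 in D10 had 1 library apart from the others. Rat 8 held 2 counts (0.0635 CPM) and the other 3 rats held 0, so the gap to the nearest library was the whole range (a ratio of 1.0). Chance marks about 1 in 20 groups of 4 in this way where values are continuous, but any group with counts in only 1 of its 4 libraries gives this ratio, so here it restates the 2 counts.

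Cxcl3 had a larger step in M1CM over M0CM than in Pol1 over D10, by a log2 difference of 3.0 (edgeR interaction term, adjusted p = 0.0437). The call was lost without rat 2, 3 or 4 and with no count filter.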

How the results depend on the processing

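In M1CM against D10 all 4 chemokine genes kept their direction and their call under all 10 alternatives, and 0 of the 4 was called in M0CM against D10 under any. With no count filter, Cxcl6 in Pol1 against D10 (log2 4.14, adjusted p = 0.0535) and Cxcl3 in the difference of differences (3.0, adjusted p = 0.0503) were lost, which left 0 members there. With DESeq2, Cxcl2 passed in Pol1 against D10 (3.79, adjusted p = 0.00918), and Cxcl1 (2.03, adjusted p = 0.0247) and Cxcl2 (6.45, adjusted p = 0.000162) passed in the difference of differences, 3 members in all. Cxcl2 had entered these tests only through M1CM, where it was high, with 10 counts in M0CM, 27 in Pol1 and 2 in D10. With the replicate block, Cxcl2 passed in Pol1 against D10 (3.62), Cxcl6 in M1CM against Pol1 (2.76) and in Pol1 against M0CM (2.18), and Cxcl1 in the difference of differences (2.07), which gave 2 members there. The block changed no other call of these genes. With only the libraries compared, Cxcl2 in Pol1 against D10 passed (3.52, adjusted p = 0.0261) and Cxcl6 did not (4.14, adjusted p = 0.0551).

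Leaving out 1 rat gave log2 values of 3.82 to 4.75 for Cxcl6 in Pol1 against D10, 4.02 to 5.02 for Cxcl6 in M1CM against M0CM, and 2.26 to 2.61 for Cxcl1 and 2.02 to 2.62 for Cxcl3 in Pol1 against M0CM, where 0 to 2 of the 4 genes were called. In the difference of differences Cxcl3 lay between 2.61 and 3.75, with 0 or 1 gene called, and Cxcl6 between -0.73 (adjusted p = 0.881), a change of sign without rat 2, and 1.21. The log2 ratio of Cxcl1 to Cxcl2 in Pol1 against D10 ran from -0.46 without rat 8 to 0.79 without rat 2. That of Cxcl2 to Cxcl10 in M1CM against D10 ran from -1.5 without rat 4 to 0.027 without rat 3. Both ratios use Cxcl2 in D10, where rats 2, 3 and 4 held 0 counts, so the 0.5 counts added would set these values. No change of direction is read from them. A test of 3 libraries against 3 cannot reach an exact p under 0.05, so ratio counts were not made without a rat. With a pseudocount of 2 counts, 11 of the 16 ratios to Cxcl10 and Ccl2 had an adjusted p under 0.05, against 0 with 0.5 counts. With 0.5 counts, every ratio at the smallest exact p of 0.0286 had an adjusted p of 0.0508. A few more ratios at that smallest p bring all of them under 0.05 together. The 16 include ratios with Cxcl2 in D10, which the added counts would set.

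Counts of genes called moved by over 1.5 times as follows. With the replicate block they were 4397 (2528 without it) in Pol1 against D10, 149 (19) in M0CM against D10, 5335 (3404) in M1CM against Pol1, 3591 (1905) in Pol1 against M0CM and 2806 (960) in the difference of differences. DESeq2 called 60 in M0CM against D10 and 1631 in the difference of differences. Leaving out 1 rat gave 1362 to 2004 in Pol1 against D10, 0 to 7 in M0CM against D10, 1729 to 2783 in M1CM against Pol1, 904 to 1377 in Pol1 against M0CM and 231 to 753 in the difference of differences. Library totals raised the share of calls that were higher to 68.9% (main 56.6%) in Pol1 against D10 and lowered it to 44.4% (main 59.5%) in the difference of differences. The cause of these shifts was not tested. Cxcl2 outside M1CM rests on at most 9 counts a library, which limits its folds.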
